A study of Rattus norvegicus with 4 samples.

Results

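Angiogenic growth factors, their receptors and endothelial genes were followed in rat soleus, the slow postural muscle of the lower leg, after regeneration and after overload. The set holds 10 genes, taken by name and not by their values, though earlier results of these data were known. They are the ligands Vegfa, Vegfb and Vegfc and the receptors Kdr, Flt1 and Tek. The others are the endothelial surface proteins Pecam1 and Cdh5 and the angiopoietins Angpt1 and Angpt2. All 10 were found among 26633 genes and transcripts on the array by matching the probes' accessions to RefSeq symbols. They were read by 13 probes on 25 spots, and 9 of them by 1 probe each.

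There were 4 groups of soleus muscles from male rats, with 1 one-colour Agilent array per group. Regenerated overloaded muscle and overloaded muscle, which is labelled hypertrophied, came from rats aged 18 weeks. Regenerated muscle, sampled 8 weeks after an injection that the labels call CTX without spelling it out, and normal muscle came from rats aged 16 weeks. Each array received a single pool of RNA from 6 muscles, so there is no spread between animals, no p-value was computed, and every difference lacks a replicate check. The strain, the way the load was raised and the time since injection in the regenerated overloaded rats are not given in the labels. The sample titles end in L for both regenerated groups and in R for overloaded and normal muscle, and the labels do not say what the letters mean or whether an L and an R sample of equal age were legs of the same animals. Age and the row of arrays on the slide both go with overload and cannot be told apart from it.

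New vessels sprout when vascular endothelial growth factors bind receptor tyrosine kinases on endothelial cells. VEGF-A acts mainly through KDR, while FLT1 binds VEGF-A tightly, signals weakly and also takes VEGF-B and placental growth factor. VEGF-C acts mostly on lymphatic vessels through FLT4. The angiopoietins bind the endothelial receptor TEK: angiopoietin 1 steadies vessels, and angiopoietin 2, stored by endothelial cells, loosens them in many settings. In skeletal muscle the fibres themselves are a main source of VEGF-A, and a dense capillary bed surrounds the slow oxidative fibres.

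Signals are processed spot intensities scaled to a common 75th percentile, and levels of different probes were not compared. The 75th percentile itself was 790, 817, 740 and 662 intensity units on the regenerated overloaded, overloaded, regenerated and normal arrays. The share of probe spots well above background was 68.1%, 70.6% and 68.9% on the first 3 and 60.4% on the normal array, which also had the highest median local background, 44 against 32, 32 and 33 units. Each error is a technical SE, made from spots of the same probe printed more than once on an array. Spots that do not overlap between arrays likewise reflect technical spread alone, and the share of all genes with such spots is not given. Of 8 endothelial markers (Pecam1, Cdh5, Kdr, Tek, Vwf, Cldn5, Esam and Emcn), all were well above background on the regenerated overloaded, overloaded and regenerated arrays and 7 on the normal array, where Tek was not. In pooled whole muscle, fewer endothelial cells and less RNA per cell cannot be told apart.

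Vegfb, the VEGF-B ligand, had the widest range of the 9 genes measured above background on all 4 arrays, 4.13-fold. Its 2 spots read 744 and 749 units in regenerated overloaded muscle, 833 and 785 in overloaded muscle, 209 and 184 in regenerated muscle and 302 and 317 in normal muscle. Both overloaded arrays were thus high and both unloaded arrays low, with no overlap between spots. The overload difference was 3.81-fold in regenerated muscle (log2 1.93, technical SE 0.069) and 2.62-fold in normal muscle (log2 1.39, technical SE 0.080). Between the unloaded arrays, regenerated muscle had a lower Vegfb signal than normal muscle (log2 -0.66, technical SE 0.087), while the overloaded arrays lay close together (log2 -0.12, technical SE 0.060).

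Vegfa, the principal angiogenic ligand, took another course and was lowest under load after injury. On its brightest probe the spots read 6345 and 5952 units in regenerated overloaded muscle, 7620 and 7413 in overloaded muscle, 7270 and 7860 in regenerated muscle and 9486 and 9738 in normal muscle. Normal muscle was highest and regenerated overloaded muscle lowest, and the overloaded and regenerated spots overlapped. The array carries 4 Vegfa probes, and their lowest and highest arrays differed by 1.56-, 1.55-, 1.73- and 1.65-fold. All 4 were lowest in regenerated overloaded muscle and highest in normal muscle. None differed 2-fold in any of the 4 comparisons, and on the brightest probe both regenerated and overloaded muscle differed from normal muscle by log2 -0.35 (technical SE 0.055 and 0.054). After injury, the load difference on this probe was -0.30 (technical SE 0.054), and under load the injury difference was -0.29 (technical SE 0.053).

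Vegfc, the lymphatic growth factor, was highest in regenerated overloaded muscle, with spots of 745 and 696 units. It read 570 and 563 units in overloaded muscle, 654 and 632 in regenerated muscle and 436 and 453 in normal muscle. No spots of different arrays overlapped, and normal muscle was lowest. The largest of its 4 differences was that of regenerated against normal muscle, 1.45-fold (log2 0.53, technical SE 0.075), and both overloaded against normal muscle and regenerated overloaded against overloaded muscle stood at log2 0.35 (technical SE 0.077 and 0.064).

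The promoters of these 3 ligands are shown because the ligands took 3 different courses over the same 4 arrays. Each sequence is the 250 bases before an annotated start in RefSeq's table for assembly GRCr8, read along the gene's strand, and the capitals mark the GC box, GGGCGG or its reverse CCGCCC, which binds factors of the SP family. The windows are chr1:213607153-213607402 on the minus strand for Vegfb, chr9:22452604-22452853 on the plus strand for the upstream of the annotated Vegfa starts, and chr16:44560888-44561137 on the minus strand for Vegfc.
Vegfb: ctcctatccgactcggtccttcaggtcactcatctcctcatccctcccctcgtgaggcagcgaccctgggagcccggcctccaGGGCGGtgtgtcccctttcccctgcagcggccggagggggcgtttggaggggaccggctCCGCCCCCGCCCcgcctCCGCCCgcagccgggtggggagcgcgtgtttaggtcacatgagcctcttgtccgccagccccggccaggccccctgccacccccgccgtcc
Vegfa: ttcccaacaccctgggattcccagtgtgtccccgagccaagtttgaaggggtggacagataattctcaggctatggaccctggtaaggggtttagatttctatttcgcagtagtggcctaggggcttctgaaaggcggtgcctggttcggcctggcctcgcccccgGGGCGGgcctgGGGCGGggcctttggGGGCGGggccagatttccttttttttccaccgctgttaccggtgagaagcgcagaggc
Vegfc: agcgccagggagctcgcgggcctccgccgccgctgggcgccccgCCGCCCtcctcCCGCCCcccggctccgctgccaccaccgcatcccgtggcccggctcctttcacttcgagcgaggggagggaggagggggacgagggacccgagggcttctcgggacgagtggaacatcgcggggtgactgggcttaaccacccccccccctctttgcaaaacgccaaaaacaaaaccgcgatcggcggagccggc
Sequences were given for 5 of the 10 genes (these 3, Flt1 and Kdr), with 6 windows in all because Vegfa has more than 1. The GC box stood in 5 of the 6 windows, against 30.5% of 33469 promoters of the same length searched on both strands. ACGTG (reverse CACGT), a form of the core of the hypoxia response element, stood in 0 of the 6 windows and in 16.6% of all promoters. The form GCGTG, whose letters occur in the Vegfb and Kdr windows and in reverse in that of Flt1, was not counted. Bases further upstream were not searched. The count therefore does not show whether these genes lack the element. The half-site of oestrogen-related receptors, AAGGTCA (reverse TGACCTT), stood in 1 window, that of the downstream Vegfa start, and in 3.99% of all promoters, and the ETS core CCGGAA (reverse TTCCGG) in that of Kdr and in 12.6%. None of the motifs contains another. All 6 windows were richer in G and C than the median of 51.2% over all promoters. The Vegfb, Flt1 and Vegfc windows had 73.2%, 73.2% and 72.4%, that of Kdr 61.6%, and the upstream and downstream windows of Vegfa 60.4% and 56.0%. The GC box holds only G and C, and its share over all promoters was not matched for this. These are matches of letters alone.

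Kdr, the main signalling receptor for VEGF-A, was the steadiest of the receptors. Its spots read 3009 and 3070 units in regenerated overloaded muscle, 3539 and 3603 in overloaded muscle, 3048 and 3057 in regenerated muscle and 3420 and 3166 in normal muscle. Overloaded muscle was highest, normal muscle came next, and the spots of regenerated overloaded and regenerated muscle overlapped. The lowest and highest arrays differed 1.17-fold, and the sign of regenerated against normal (log2 -0.11, technical SE 0.056) turned positive with cyclic loess, with the authors' scaling and with none. Flt1, the tight-binding receptor, was dim, with 90.0 and 80.5 units in regenerated overloaded, 92.3 and 92.8 in overloaded, 92.6 and 105 in regenerated and 145 and 117 in normal muscle. Normal muscle was highest on both spots. Its log2 difference of overloaded against normal muscle was -0.49 (technical SE 0.15) and that of regenerated against normal muscle -0.40 (technical SE 0.14).

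Tek, the angiopoietin receptor, lay close to background on every array. Its spots read 46.3 and 45.6 units in regenerated overloaded, 40.8 and 46.4 in overloaded, 47.6 and 44.4 in regenerated and 24.0 and 38.8 in normal muscle. Neither spot on the normal array was well above background. Tek was therefore set against a floor on the normal array, the higher of its own signal and the dimmest signal flagged above background. It was at least 1.41-fold higher in regenerated and at least 1.34-fold higher in overloaded than in normal muscle, with measured means of 46.0 and 43.5 units against 30.5. The normal array had the brightest local background of the 4, and its part in this difference was not tested.

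The endothelial surface genes went apart. Pecam1, an adhesion molecule at endothelial junctions, read 4159 and 4010 units in regenerated overloaded, 3604 and 3511 in overloaded, 3615 and 3693 in regenerated and 3133 and 3075 in normal muscle. Cdh5, the cadherin of endothelial junctions, read 737 and 630 units in regenerated overloaded, 833 and 770 in overloaded, 827 and 819 in regenerated and 970 and 950 in normal muscle. Pecam1 was thus highest and Cdh5 lowest in regenerated overloaded muscle, and normal muscle stood at the other end for each. The lowest and highest arrays differed 1.32-fold for Pecam1 and 1.41-fold for Cdh5. Against normal muscle, regenerated muscle differed by log2 0.24 (technical SE 0.057) for Pecam1 and -0.22 (technical SE 0.067) for Cdh5. The value of Cdh5 in overloaded against normal muscle, -0.26 (technical SE 0.065), was 0.04 without scaling.

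The angiopoietins also differed from each other. Angpt2, the vessel-loosening ligand, read 259 and 264 units in regenerated overloaded, 224 and 225 in overloaded, 218 and 208 in regenerated and 175 and 168 in normal muscle. Spots of the 4 arrays did not overlap, with normal muscle lowest, and the ends were 1.53-fold apart. Overloaded and regenerated muscle lay close together, with means of 224 and 213 units (technical SE 0.070 and 0.055 on the log2 scale). Angpt1, the vessel-steadying ligand, read 367 and 340 units in regenerated overloaded, 328 and 327 in overloaded, 364 and 369 in regenerated and 378 and 361 in normal muscle. Its arrays differed 1.13-fold at most, and overloaded muscle was lowest. Angpt2 differed by log2 0.39 (technical SE 0.13) in overloaded against normal muscle and by 0.31 (technical SE 0.12) in regenerated against normal muscle.

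**Figure D1:**
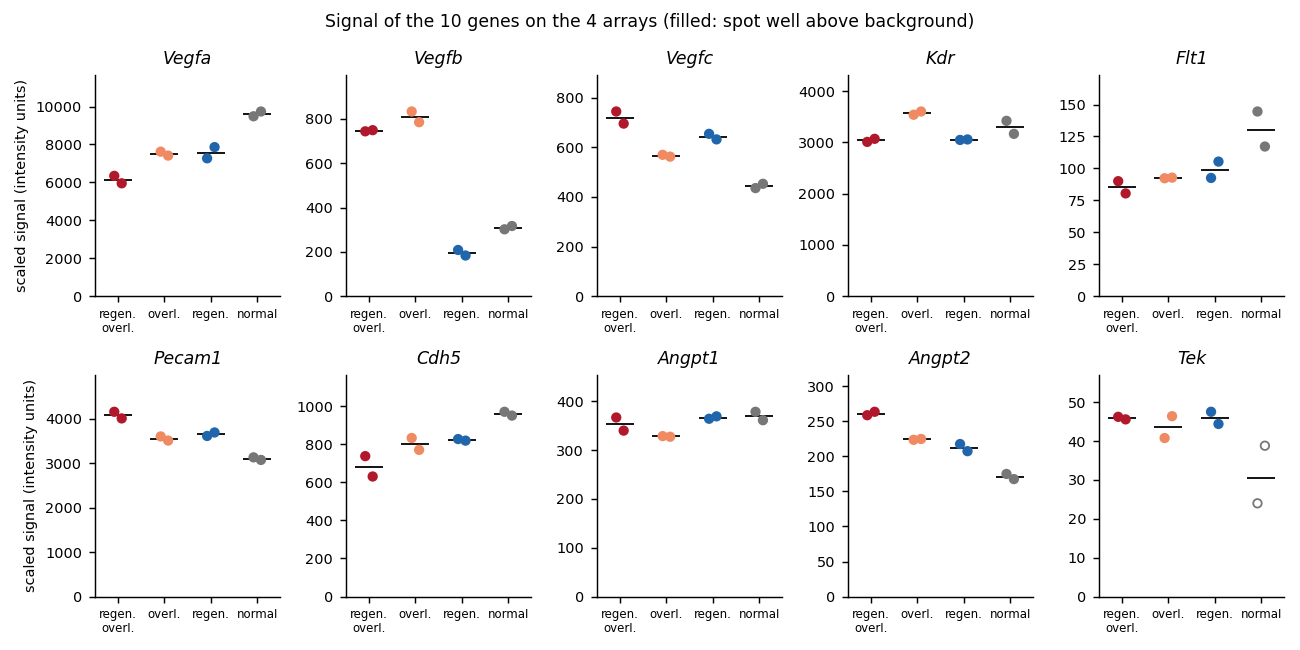
Scaled signal in intensity units (vertical axes from 0) of the 10 genes on the regenerated overloaded, overloaded, regenerated and normal arrays, from left to right; points are the 2 spots of the probe used, open where not well above background, and bars are their means. Vegfb was high on both overloaded arrays (746 and 809 units on average) and low on the others (196 and 309), and Vegfa was highest in normal muscle.

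Regenerated muscle was first set against normal muscle, to ask what an old injury leaves behind. No gene of the set differed 2-fold, 0 of 10, in a comparison where 322 of 16892 measured genes and transcripts did (1.91%). The set's values ran from -0.66 for Vegfb to 0.53 for Vegfc on the log2 scale. The median over the 9 genes above background on both arrays was -0.11, the same as the median of -0.11 over all genes so measured. Vegfc, Angpt2, Pecam1 and Tek had a higher signal in regenerated muscle, and Vegfb, Flt1, Vegfa, Cdh5, Kdr and Angpt1 a lower one, with Angpt1 at -0.01 (technical SE 0.085) and positive under 3 of the scalings.

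Growth under load in muscle that was not injured was read from overloaded against normal muscle. Vegfb rose 2.62-fold and was the 1 gene of 10 past the limit, against 546 of 17288 in all (3.16%). A larger positive difference was seen for 146 genes and transcripts. The other 9 genes lay between -0.49 for Flt1 and, at its smallest fold, 0.42 for Tek on the log2 scale. The median over the 9 genes above background on both arrays was 0.12, and that over all genes -0.12.

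Load on muscle that had been injured was read from regenerated overloaded against regenerated muscle. Vegfb rose 3.81-fold and was again the 1 gene of 10 past the limit, against 342 of 17187 in all (1.99%), and 36 genes and transcripts had a larger positive difference. The other 9 lay between -0.30 for Vegfa and 0.30 for Angpt2 on the log2 scale. The median of the 10 was 0.00, against -0.02 for all genes above background on both arrays. The 2 overload comparisons share no array, but age and slide row go with load in both. These comparisons had 96 higher genes and transcripts in common. The 96 were 23.0% of the 418 higher, of 17288 measured, in overloaded against normal muscle. They were 36.1% of the 266 higher, of 17187 measured, in regenerated overloaded against regenerated muscle. Vegfb was the only gene of the set among the 96.

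The old injury in muscle under load was read from regenerated overloaded against overloaded muscle. No gene of the set differed 2-fold, 0 of 10, against 295 of 17475 in all (1.69%). The values ran from -0.29 for Vegfa to 0.35 for Vegfc on the log2 scale, with Kdr and Cdh5 at -0.23 each, and the median was -0.02, against -0.01 for all genes. The injury and overload comparisons share arrays, so their values are given side by side and not as repeats.

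**Figure D2:**
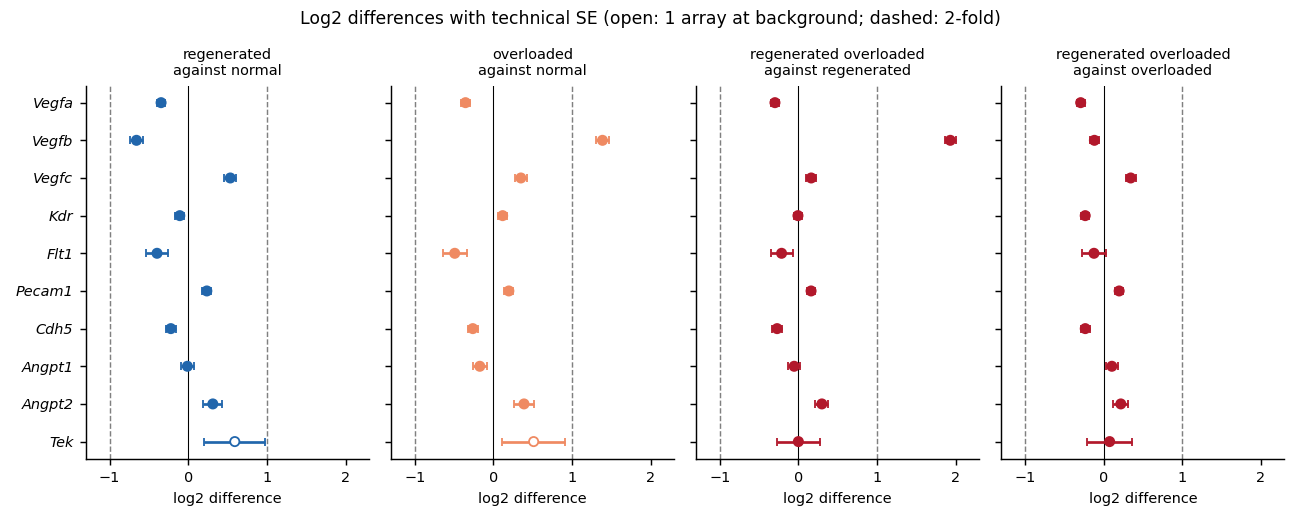
Log2 differences of the 10 genes (horizontal axes) in the 4 comparisons, with bars of 1 technical SE from repeated spots; dashed lines mark 2-fold, and open points mark Tek where the normal array was at background. Vegfb lies past 2-fold in the 2 overload comparisons (1.39 and 1.93), and all other points lie inside the lines.

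Whether overload acted differently after injury was read from the difference of differences, which subtracts the log2 overload effect of normal muscle from that of regenerated muscle. For Vegfb it was 0.54 (technical SE 0.11), and 98.0% of 14392 genes above background on all 4 arrays had a smaller value. The 4 means behind it were 746 and 196 units with and without load after injury, and 809 and 309 units with and without load in uninjured muscle. The other 8 genes measured on all arrays lay between -0.19 for Vegfc and 0.28 for Flt1 (technical SE 0.099 and 0.21). None of the 9 reached 2-fold, against 109 of the 14392 (0.757%).

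**Figure D3:**
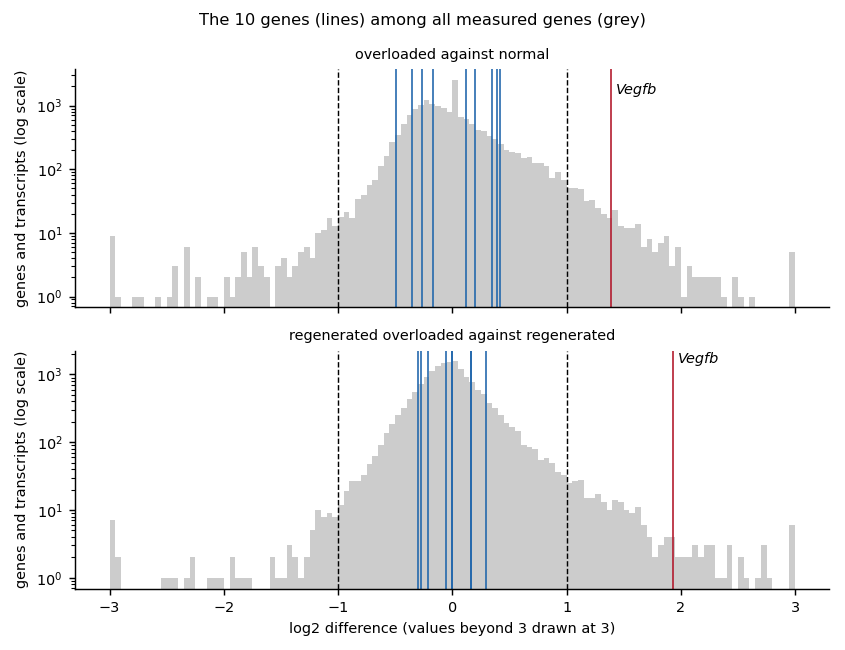
Number of genes and transcripts (log scale) by log2 difference in the 2 overload comparisons, with the 10 genes as vertical lines and 2-fold as dashed lines; genes at background on 1 array stand at their smallest fold, which piles values at 0. Vegfb (1.39 and 1.93) stands in the right tail of both, and the other lines lie between -0.49 and 0.42.

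The differences of the 4 Vegfa probes were set side by side, as separate readings of 1 gene in the same RNA. Against normal muscle, the log2 values of overloaded muscle were -0.35, -0.57, -0.68 and -0.48 for probes A_64_P099886, A_64_P099891, A_64_P099893 and A_64_P155983. Those of regenerated muscle were -0.35, -0.35, -0.40 and -0.25 in the same order. For regenerated overloaded against overloaded muscle they were -0.29, -0.07, -0.11 and -0.24, with technical SEs of 0.053, 0.056, 0.097 and 0.16. All 16 values (4 probes in 4 comparisons) were below 0, also under the 5 other scalings, but some came close to 0. The brightest probe stood at -0.05 in overloaded against normal muscle without scaling, and A_64_P099891 at -0.04 in regenerated overloaded against overloaded muscle under another scaling. In overloaded against normal muscle the brightest probe differed by more than the errors from A_64_P099891 (2 spots) and from the single-spot probe A_64_P099893. The technical SEs there were 0.054, 0.056 and 0.097. It also differed so from both in regenerated overloaded against overloaded muscle, while A_64_P155983 lay within the errors of it in each of these comparisons.

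**Figure D4:**
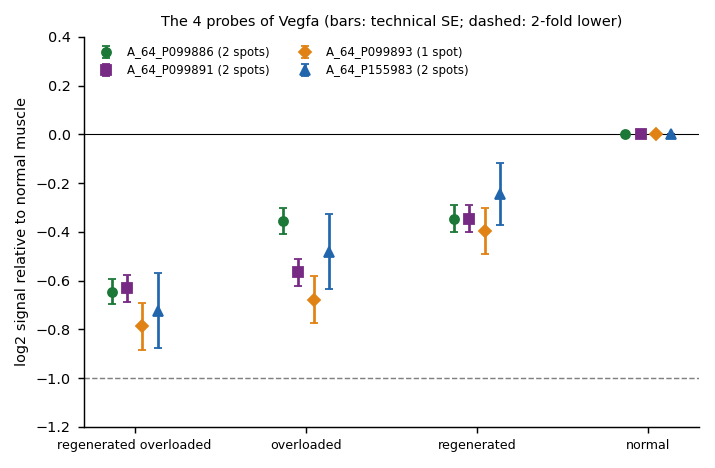
Log2 signal of the 4 Vegfa probes relative to normal muscle (vertical axis) on the regenerated overloaded, overloaded, regenerated and normal arrays, with bars of 1 technical SE and a dashed line at 2-fold lower. All 4 probes lie below normal muscle on the other 3 arrays and lowest in regenerated overloaded muscle.

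Among 9108 named genes above background on all 4 arrays, Fos had the profile most like that of Vegfb (Euclidean distance 0.35 between centred log2 profiles over the 4 arrays). Fos, an immediate early transcription factor, read 647 units in regenerated overloaded, 827 in overloaded, 209 in regenerated and 245 in normal muscle. Nr4a2, an orphan nuclear receptor induced early by many stimuli, came next (distance 0.41, 1 spot), with 1533, 2260, 517 and 630 units in the same order. Bmal1, a core transcription factor of the circadian clock, was the third (distance 0.45), with 541, 589, 204 and 281 units. Because they were chosen for closeness to Vegfb, all 3 were high on both overloaded arrays and low on both unloaded ones. With 4 arrays, likeness of profile is a description.

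The other members of the VEGF and angiopoietin families were on the array for 7 of 8 listed genes, and 4 or 5 were above background on each array. None differed 2-fold. Pgf, placental growth factor, a ligand of FLT1, read 537 and 510 units in regenerated overloaded and overloaded muscle, against 1000 and 751 in regenerated and normal muscle. It was low on both overloaded arrays, the opposite of Vegfb, with log2 differences of -0.90 (technical SE 0.064) after overload of regenerated and -0.56 (technical SE 0.069) after overload of normal muscle. Angpt4, a further angiopoietin, was above background everywhere but on the normal array and was at least 1.57-fold higher in regenerated and at least 1.46-fold higher in overloaded than in normal muscle. Flt4, the VEGF-C receptor (113, 130, 137 and 137 units in regenerated overloaded, overloaded, regenerated and normal muscle), and Tie1, the partner receptor of TEK (119, 137, 124 and 100 units), differed by log2 0.45 at most, for Tie1 in overloaded against normal muscle (technical SE 0.18).

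Of 17 measured genes of the endothelial list, 1 rose in regenerated muscle and none of the 17 passed 2-fold in the other comparisons. The 1 was Plvap, the diaphragm protein of fenestrated and venous endothelium, with 4513 units in regenerated overloaded, 3281 in overloaded, 4137 in regenerated and 1700 in normal muscle. Normal muscle stood apart from the other 3 arrays, and the fold was 2.43 in regenerated against normal (log2 1.28, technical SE 0.057) and 1.93 in overloaded against normal muscle (log2 0.95, technical SE 0.055). Fli1, an ETS factor of endothelial and blood cells, was near background, with log2 0.70 (technical SE 0.37) and 0.62 (technical SE 0.39) in those comparisons. After overload of regenerated muscle, Sox7 and Cd34, a transcription factor and a surface protein of endothelial and progenitor cells, had 0.60 (technical SE 0.22, 1 spot) and 0.58 (technical SE 0.12). In overloaded against normal muscle 16 of the 17 lay above 0 with a median of 0.27, beside a median of -0.12 over all genes above background on both arrays. In regenerated against normal muscle 14 of 17 did, with a median of 0.14 beside -0.11. These comparisons share the normal array. In regenerated overloaded against regenerated muscle, 10 of 17 lay above 0 with a median of 0.04 beside -0.02. In regenerated overloaded against overloaded muscle, 6 of 17 did, with a median of -0.11 beside -0.01, and Ets1 was at -0.44 (technical SE 0.27). Over all measured genes and transcripts, 35.3%, 34.5%, 45.0% and 45.7% lay above 0 in these 4 comparisons, in the order given. Those shares include genes at background on 1 array, some of which stand at 0.

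In the Notch and sprouting list, Esm1, a proteoglycan of endothelial tip cells, fell 2.01-fold in overloaded against normal muscle (log2 -1.01, technical SE 0.057), 1 of 11 measured genes. It read 1249 units in regenerated overloaded, 1264 in overloaded, 1975 in regenerated and 2546 in normal muscle, low under load in both kinds of muscle. The fall was under 2-fold with each of the 5 other scalings, with normexp and at the smallest difference between spots (log2 -0.71 without scaling). Aplnr, the apelin receptor, had log2 0.96 in overloaded against normal muscle (technical SE 0.29), and Jag1, a Notch ligand, 0.57 in regenerated against normal muscle (technical SE 0.082). Notch4 and Hey2, an endothelial Notch receptor and a Notch target, were at -0.43 (technical SE 0.053) and -0.36 (technical SE 0.16) in regenerated overloaded against overloaded muscle.

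Among 8 measured other angiogenic factors, Ppargc1a, a coactivator of oxidative metabolism that raises Vegfa in mouse muscle, fell in both overload comparisons. It read 41.8 units in regenerated overloaded, 51.3 in overloaded, 90.5 in regenerated and 124 in normal muscle. The falls were 2.17-fold in regenerated (log2 -1.12, technical SE 0.22) and 2.43-fold in normal muscle (log2 -1.28, technical SE 0.23). With normexp, another background correction, neither fall reached 2-fold (-0.61 and -0.93); nor did that in regenerated muscle at the smallest difference between spots, nor that in normal muscle without scaling. Cxcl12, a chemokine that guides endothelial and progenitor cells, passed no limit and read 3558, 3111, 2643 and 1663 units, with log2 0.90 (technical SE 0.055) in overloaded and 0.67 (technical SE 0.057) in regenerated against normal muscle. Pdgfb, which recruits pericytes, read 20.2 units in regenerated overloaded muscle, not well above background, and 33.5 in overloaded muscle on 1 spot.

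Of the hypoxia response list, 0 genes of the 9 or 10 measured passed 2-fold in any comparison. Egln3, an oxygen-sensing hydroxylase, and Epas1, the hypoxia factor enriched in endothelium, had the largest differences in overloaded against normal muscle, log2 -0.57 (technical SE 0.065) and -0.45 (technical SE 0.097). After overload of regenerated muscle they were -0.35 (technical SE 0.062) and -0.40 (technical SE 0.082). In regenerated against normal muscle Ndrg1, a hypoxia-induced gene, had 0.71 (technical SE 0.082) and Adm, the vasodilator adrenomedullin, 0.38 (technical SE 0.030). Ankrd37, a hypoxia-induced ankyrin repeat gene, had 0.14 in regenerated overloaded against overloaded muscle. The list medians were -0.04 and -0.07 for overload of normal and of regenerated muscle, and 0.04 and 0.07 for injury without and with load.

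The angiostatic list had 1 of 6 measured genes higher in each overload comparison, Thbs2, the thrombospondin that restrains vessel growth. It read 962 units in regenerated overloaded, 643 in overloaded, 433 in regenerated and 231 in normal muscle, each array apart from the next. The rises were 2.22-fold in regenerated (log2 1.15, technical SE 0.062) and 2.79-fold in normal muscle (log2 1.48, technical SE 0.097). Over all genes and transcripts, 266 of 17187 rose so under load in regenerated and 418 of 17288 in normal muscle. Col18a1, the collagen from which endostatin is cut, read 705, 449, 543 and 296 units and passed no limit, with log2 0.88 (technical SE 0.082) in regenerated against normal and 0.65 (technical SE 0.064) in regenerated overloaded against overloaded muscle. Serpinf1, the anti-angiogenic serpin PEDF, had log2 0.79 in overloaded against normal muscle (technical SE 0.053), and Timp3, a metalloprotease inhibitor that also blocks KDR, -0.48 in regenerated overloaded against regenerated muscle (technical SE 0.099).

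Of 4 lymphatic genes measured in regenerated overloaded against overloaded muscle, Reln, reelin, was at least 2.65-fold higher, with 41.6 against 15.7 units, the overloaded spots being at background. With normexp its log2 value was 0.37, against 1.41. Ccl21, a chemokine of lymphatic endothelium, read 2021 and 1011 units in those groups, just under the limit (technical SE 0.056 on the log2 scale), and 1541 and 900 in regenerated and normal muscle. Pdpn, podoplanin, which fibroblasts also carry, read 3597, 2909, 2186 and 1490 units over the 4 groups, with log2 0.97 in overloaded against normal muscle (technical SE 0.083, 1 spot). Lyve1, a hyaluronan receptor of lymphatic vessels, read 676, 774, 715 and 686 units. Of the activated endothelium list, Sele, E-selectin, was above background in regenerated overloaded muscle alone, at 33.6 units on 1 spot, and at least 2.04-fold higher than in regenerated and at least 2.28-fold higher than in overloaded muscle. With normexp and with the mean over its probes neither value reached 2-fold. Icam1 and Vcam1, adhesion molecules for leukocytes, had log2 0.91 (technical SE 0.053) and 0.54 (technical SE 0.034) in regenerated against normal muscle and 0.74 (technical SE 0.057) and 0.50 (technical SE 0.034) in overloaded against normal muscle.

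**Figure D5:**
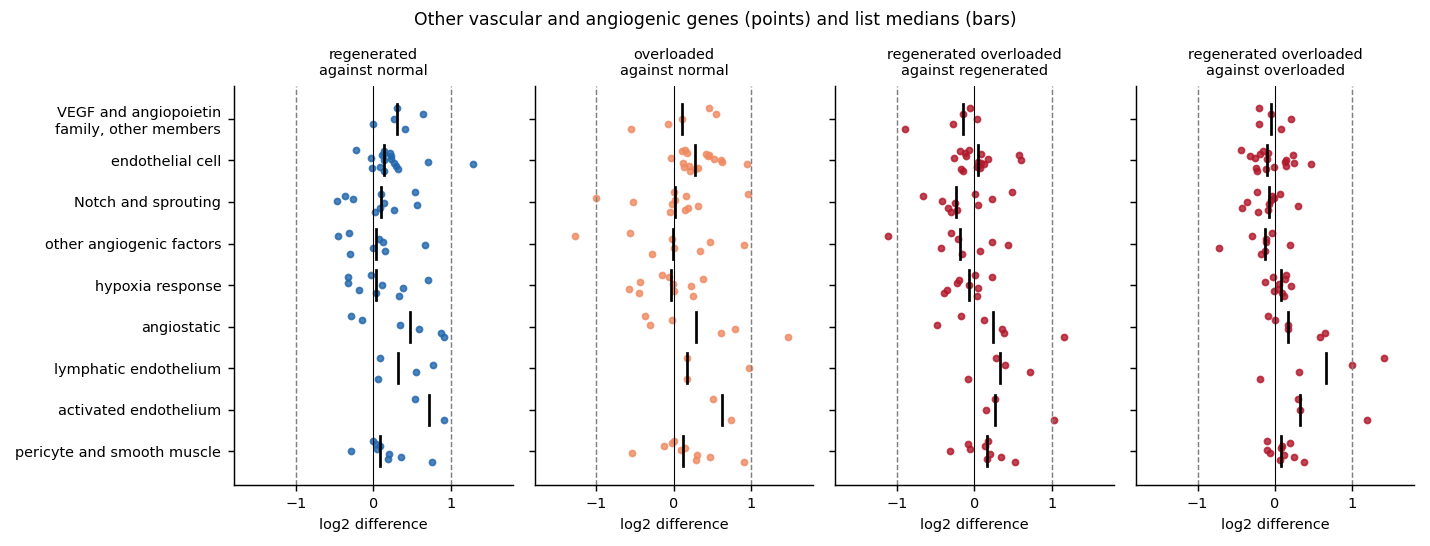
Log2 differences (horizontal axes) of the measured genes of 9 further vascular and angiogenic lists in the 4 comparisons; points are genes, black bars are list medians and dashed lines mark 2-fold. Few points pass the lines, among them Plvap on the right in regenerated against normal muscle, Thbs2 on the right and Ppargc1a on the left in both overload comparisons.

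Markers of other cells moved with the groups as well. The pericyte and smooth muscle list had 0 of 9 or 10 measured genes past 2-fold in every comparison, with a summed signal of 13209, 12155, 12137 and 11433 units in regenerated overloaded, overloaded, regenerated and normal muscle. Pdgfrb, the PDGF receptor of pericytes and fibroblasts, had log2 0.91 (technical SE 0.083) in overloaded against normal muscle, Cspg4, a pericyte proteoglycan, read 2113, 1787, 1670 and 1298 units over the 4 groups, and Abcc9, a channel subunit of mural cells, read 1764, 1848, 2197 and 2691.

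The 6 fibroblast markers summed to 155769, 123543, 91030 and 44716 units in the same order of groups, and the 7 macrophage markers to 4242, 3902, 3634 and 2199. Both sums have the order of the Thbs2 and Angpt2 means, but the overloaded and regenerated means of Angpt2, 224 and 213 units, lay close together. Their technical SEs were 0.070 and 0.055 on the log2 scale, and the likeness was not tested. Of the fibroblast markers, 2 rose in regenerated against normal muscle (Col1a1 and Col3a1, fibrillar collagens), 4 in overloaded against normal muscle (these and Lum and Thy1) and 3 in regenerated overloaded against regenerated muscle (Col1a1, Lum and Thy1). Over all measured genes and transcripts, 212 of 16892, 418 of 17288 and 266 of 17187 rose 2-fold or more in these comparisons, in that order. Col3a1 read 63785, 51159, 35781 and 11595 units. Thy1 was not well above background in normal muscle, so its rise in overloaded against normal muscle is a smallest value, at least 2.19-fold, which was under 2-fold with normexp and with quantile normalization. In regenerated overloaded against regenerated muscle Thy1 was under 2-fold with normexp. The macrophage gene Cd68 rose in regenerated and overloaded against normal muscle (1637, 1381, 1408 and 679 units) and Adgre1 in overloaded against normal muscle (455, 446, 324 and 193 units). The other 5 macrophage markers did not pass the limit, and Itgam, an integrin of myeloid cells, lay the other way, with 66.7, 71.6, 83.6 and 99.2 units. Mrc1, the mannose receptor, read 97.1, 92.1, 75.7 and 74.4 units. The macrophage sum weighs probes by their brightness, and Cd68 and Cd163 made up most of it on every array. Each rise of Cd68 was under 2-fold in 2 of 13 alternatives, that of Adgre1 with normexp, and that of Col1a1 after load on regenerated muscle in 2 of 13.

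The 8 slow fibre markers summed to 1572720, 1682880, 1764640 and 2096810 units, all 8 above background on every array. The lowest and highest sums fell on the same arrays as for Vegfa, whose overloaded and regenerated spots overlapped. Tnnt1, a slow troponin, was instead lowest in overloaded muscle (329049 units, against 335796 in regenerated overloaded muscle). No marker of the list passed 2-fold, and Ckm, muscle creatine kinase, had 108879, 138531, 148454 and 187364 units. The blood and platelet list summed to 168245, 156738, 141361 and 145716 units, with the haemoglobin gene Hbb between 56331 and 67446 units, while the platelet gene Ppbp was at background on every array and Pf4 read 3330, 2702, 2781 and 1495 units. Adipocyte markers summed to 1270, 784, 1880 and 968 units and Schwann cell markers to 164, 220, 207 and 225, with 0 genes of either list past 2-fold. The part of these cell types in the vascular values was not tested.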

How the data were processed

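RNA of rat soleus was measured on 4 one-colour Agilent arrays, 1 per group, each from a pool of 6 muscles. Per the labels' protocols, cRNA was labelled with Cy3. The deposited scanner files give each spot's processed signal as an intensity on a linear scale, background-subtracted and detrended but not scaled between arrays, plus median signal and background intensities and flags. Feature Extraction is version 11.5.1.1 per the file headers and 10.10.1.1 per the submitters' processing notes. In the authors' series table each intensity equals that signal multiplied by a constant of its array (2.02, 1.95, 2.10 and 2.14 for regenerated overloaded, overloaded, regenerated and normal muscle; column medians 226, 222, 212 and 182), linear and not centred; what fixed the constant is unknown.

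Spots with an outlier flag (406 to 451 per array, none of them of the 10 genes) were left out; no spot was saturated. Each log2 signal was reduced by that of the array's 75th percentile and printed on a common scale (750 units). Repeated spots were averaged, and the brightest of a gene's probes stood for it. A probe counted as above background where all its spots were flagged so; genes above background on 1 array of a pair are given an at-least fold against the higher of the lowest such signal and their own. The limit was 2-fold, with no test. Technical SEs use the SD between spots, pooled in 20 bins of signal. Of 30367 probes, 18643 matched 15637 RefSeq symbols by accession (assembly GRCr8; the array design uses rn4). Genes outside the set could be named if they passed 2-fold in a comparison or had 1 of the 2 largest differences of their list; markers of other cells that did not pass are given mainly as sums. There were 13 alternatives. The set, lists and alternatives were chosen with earlier results of these data known. The script was tested on simulated data. Python 3.11.15, numpy 2.4.6, pandas 2.3.3, R 4.3.3 and limma 3.58.1 were used.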

Additional observations from a re-analysis of the deposited data

How the results depend on the processing

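Vegfb stayed past 2-fold under 13 of 13 alternatives in both overload comparisons, with log2 values between 1.17 and 1.69 in overloaded against normal muscle and between 1.61 and 2.02 in regenerated overloaded against regenerated muscle, and no value of the 10 genes crossed 2-fold under any of them. Of 40 differences of the genes, 31 kept their sign under all alternatives; the other 9, which turned or came to 0 under at least 1, belong to Kdr, Cdh5, Angpt1 and Tek. Of 9 differences of differences, 5 kept their sign. The difference of differences of Vegfb lay between 0.34 and 0.57, and that of Vegfa between -0.15 and 0.16. Counts over all genes moved more. For injury without load, load without injury, load after injury and injury under load, they were 96, 182, 101 and 69 with normexp and 2209, 5698, 1460 and 1438 without the filter on dim probes. With genes above background on both arrays they were 196, 225 and 143 for injury without load, load after injury and injury under load. For load without injury, that setting gave 288 higher and 84 lower. Without scaling the count for load without injury was 1092. In overloaded against normal muscle 418 genes were higher and 128 lower, against 1025 and 67 without scaling and 707 and 82 with the authors' values; in regenerated against normal muscle 212 were higher and 110 lower, against 355 and 85 and 322 and 90. Leaving the arrays unscaled put the median of all genes in overloaded against normal muscle at 0.17 in place of -0.05, and that of the 10 genes at 0.46 in place of 0.16. The cause of these shifts was not tested. No paired analysis was possible because each group has 1 array. Flt1, Tek and other dim probes are limited by background, and 4 arrays bound the precision of every value.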
